A study of Mus musculus with 3 samples.

Results

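The genes described here make the machinery by which secretory and membrane proteins enter the endoplasmic reticulum (ER), receive N-linked glycans and fold. They were chosen by gene symbol, with earlier results of these data known, and the rule uses no measured value: 56 of the 41743 symbols in the deposited tables matched a pattern or a short list of names covering the signal recognition particle (SRP), its receptor, the Sec61 translocon, the TRAP complex, signal peptidase, the Alg enzymes, oligosaccharyltransferase, the calnexin cycle, the protein disulfide isomerases and ER chaperones. Of these, 55 passed the filter on low counts, and Pdia2 had 0 counts in all 3 libraries. The measurement is RIP-seq, in which RNA that comes down with an antibody is sequenced, and the question put to it was which RNAs were recovered with ezrin, a protein that links membranes to actin. All libraries came from 1 genotype of K7M2, a mouse osteosarcoma line: Ezrin -/- transfected with Ezrin T567A, in which the endogenous gene was disrupted with CRISPR/Cas9 and a T567A cDNA was put back by stable transfection, with no treatment. Anti-ezrin antibody gave the ezrin IP group (2 libraries) and normal mouse IgG gave the control group (1 library). No input RNA, parental line or other ezrin allele was analysed here, so the values compare 2 antibodies in 1 engineered line, and enrichment cannot be told apart from differences in what each pull-down carried along.

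Proteins bound for the secretory pathway carry a signal sequence that SRP recognises on the ribosome. The SRP receptor brings the ribosome to Sec61, through which the chain is threaded into the membrane or the lumen. There oligosaccharyltransferase attaches a glycan that the Alg enzymes built on a lipid carrier, glucosidases trim it so that calnexin and calreticulin can hold the chain, and disulfide isomerases pair its cysteines. Osteoblast-lineage cells, which secrete collagen matrix, are heavy users of this route. The machinery itself divides by place: chaperones and isomerases are mostly soluble in the lumen, most translocation and glycosylation subunits sit in the membrane, and SRP works from the cytosol.

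The libraries held 19676595 and 16196329 counts for ezrin replicates 1 and 2, and 10124580 for IgG. Ezr, the disrupted and restored gene, read 349, 350 and 155 CPM (counts per 1000000 counts, TMM-scaled) in ezrin 1, ezrin 2 and IgG. These reads cannot be divided between transgene and disrupted gene, so they do not check the genotype. Protein-coding genes took 97.5% and 98.1% of counts in the ezrin libraries and 74.7% in IgG, and the part of this difference in the results below was not tested. The osteoblast marker list did not mark the label evenly. Its summed level was 4534, 3700 and 2210 CPM in ezrin 1, ezrin 2 and IgG; of 6 markers tested out of 10 listed, 3 were higher in the ezrin libraries (Col1a2, Spp1 and Sparc) and 2 lower (Runx2 and Alpl), and Ibsp was at 0. The macrophage list summed to 965, 871 and 1234 CPM, almost all of it Csf1r, with Ptprc and Adgre1 at 0. Plasma and B cell, endothelial and epithelial lists stayed between 0.314 and 35.0 CPM, and 6 of the 8 plasma and B cell markers were at 0. The part of these marker levels in the results was not tested. They come from pull-downs of 1 cell line and are not a measure of how many cells of a type were present. Nothing in the labels ties the 2 ezrin libraries to separate cultures, so differences between them may be technical, and no p-value speaks for other cultures. In edgeR the spread of every one of the 12478 genes was set wholly by a trend shared across genes. A gene's SE and p-value therefore do not reflect how far its own ezrin libraries lay apart. Srp54b, at 36.3 and 74.0 CPM in ezrin 1 and 2, had an SE of 0.28, and Srp19, at 27.2 and 27.5 CPM, had 0.26.

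Across the 55 tested members, 15 were higher in the ezrin IP than in IgG and 7 were lower at an adjusted p under 0.05, against 19.0% higher and 17.4% lower among all 12478 genes tested. Both ezrin libraries lay above IgG for 30 members and both lay below for 15, beside 42.6% above and 44.3% below over all genes. The median log2 fold of ezrin over IgG was 0.20 for the members and -0.02 for all genes. With 2 libraries against 1 an exact permutation test over samples cannot give a p under 0.333, so the calls rest on edgeR's model across all genes.

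The split by place was wider than the whole. Genes for lumenal proteins had 7 higher and 0 lower of 13 tested, with a median log2 fold of 0.66. Genes for membrane proteins had 3 higher and 7 lower of 32, with a median of 0.00, and genes for cytosolic proteins had 5 higher and 0 lower of 10, with a median of 0.51. The cytosolic genes called higher include Srp54a, Srp54b and Srp54c, which are near-identical copies. Both ezrin libraries lay above IgG for 10 of the 13 lumenal genes and for 13 of the 32 membrane genes. The lumenal median exceeded the membrane median by 0.66. The same difference taken from each ezrin library alone was 0.65 and 0.60, but both were taken against the same IgG library and are not independent. Within a library, where no scaling between libraries enters, the summed counts of the lumenal genes were 1.77 times those of the membrane genes in ezrin replicates 1 and 2 alike and 1.33 times in IgG. Calr carries much of that sum. Without it the ratios were 1.25, 1.23 and 0.768.

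**Figure D1:**
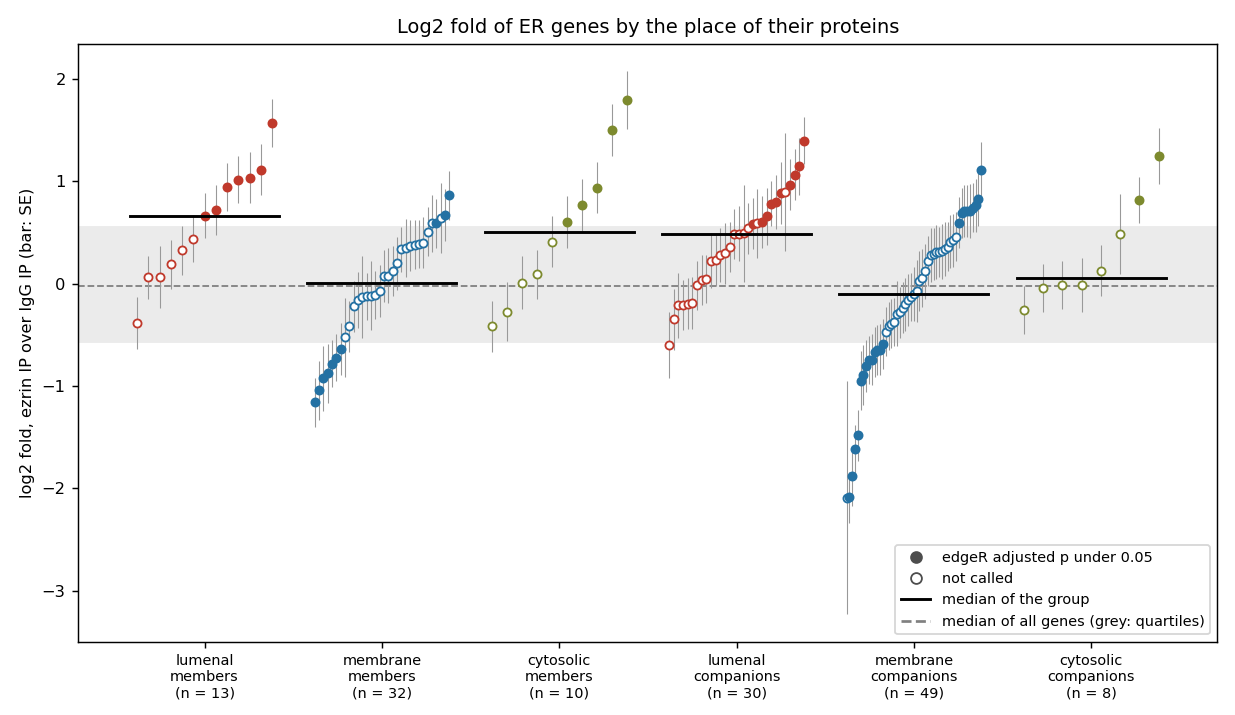
Log2 fold of ezrin IP over IgG IP (vertical axis, points with approximate SE bars) for each tested gene, grouped by where its protein resides, for the 55 members and 87 further ER genes; filled points passed edgeR's adjusted p of 0.05, black lines are group medians, and the grey band is the middle of all genes from the lower to the upper quartile. The lumenal groups hold no filled point below 0, whereas the membrane groups hold filled points on both sides.

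Abundance differed between the places too. On the CPM scale, which is not per length, lumenal genes had a median of 179, membrane genes 45.7 and cytosolic genes 65.1, and the log2 fold of all genes rose with abundance, from a median of -1.02 in the lowest of 20 equal bins to 0.53 in the highest. Among all genes at 100 CPM or more, 38.5% were higher and 14.8% lower, with a median of 0.30. In that band 7 of 10 lumenal members were higher and 0 lower, with a median of 0.83. Of 10 membrane members there, 2 were higher and 2 lower, with a median of 0.36, which leaves a difference of 0.47. The 3 cytosolic members in the band had a median of 0.94, above the lumenal one. Below 100 CPM, 0 of 3 lumenal genes were called, and 1 of 22 membrane genes was higher and 5 were lower. Over all 10225 genes below 100 CPM, 1509 were higher and 1837 lower, with a median of -0.09. Under cyclic loess, which removes trends with abundance between libraries, the lumenal minus membrane difference was 0.13 for the members and 0.43 for the further ER genes described later. Among those further genes at 100 CPM or more, the lumenal median was 0.68 and the membrane median 0.33. The part of abundance in the split was not tested beyond these values.

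**Figure D2:**
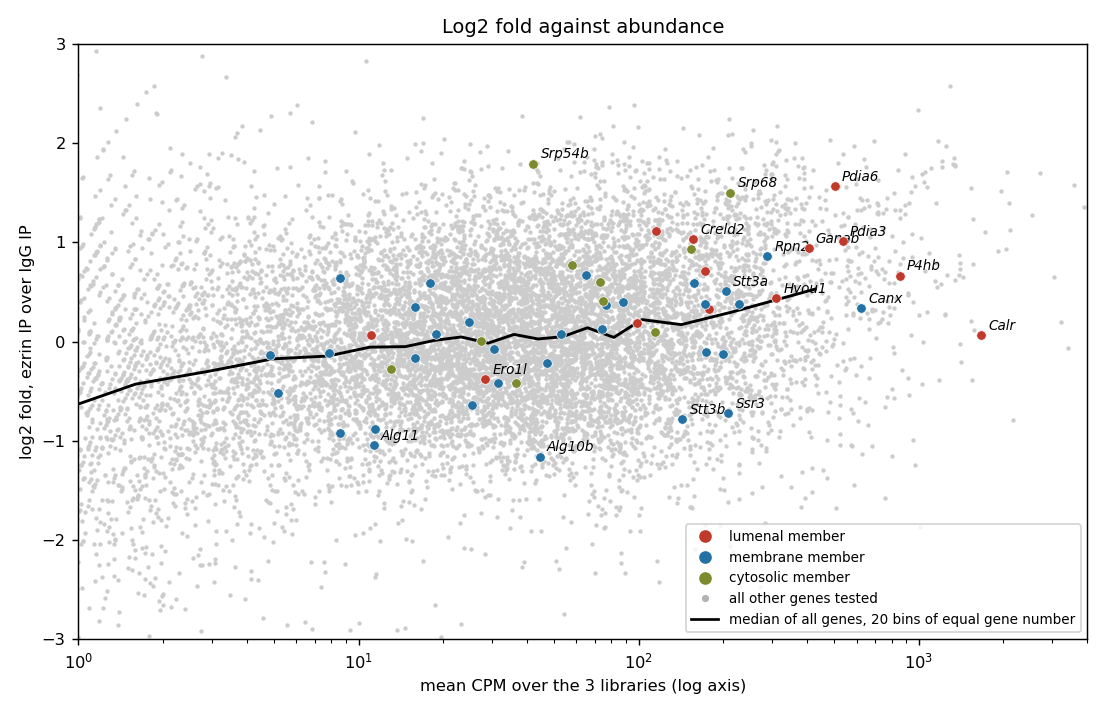
Log2 fold of ezrin IP over IgG IP (vertical axis) against mean CPM over the 3 libraries (log axis), with members coloured by place and all other tested genes in grey; values outside the axes are not drawn. The black line, the median of all genes in 20 bins, climbs to 0.53 at the right, where Pdia6 (1.57) lies above it and Calr (0.06) below it.

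The SRP binds the signal sequence, and 4 of its 8 protein genes were higher, with 0 lower and a median of 0.51. Apart from Srp68, the higher genes are near-identical copies of Srp54, so the count is not one of separate subunits. Srp68, which with Srp72 forms a heterodimer on the SRP RNA, was at 274, 268 and 95.7 CPM in ezrin 1, ezrin 2 and IgG (chr11:116245166-116274217, GRCm38.p6). Both ezrin values stand far above IgG and close to each other, for a log2 fold of 1.50 (SE 0.25, adjusted p = 6.0e-08). Its partner Srp72 read 109, 125 and 110 CPM, a log2 fold of 0.09 (SE 0.24, adjusted p = 0.79), with IgG between the ezrin values. The count ratio of Srp68 to Srp72 was 2.51 and 2.15 in the ezrin libraries and 0.873 in IgG. Srp54, the GTPase that holds the signal sequence, has near-identical copies side by side on chromosome 12, so counts may be divided among them in ways the sources do not state. Srp54b was at 36.3, 74.0 and 15.9 CPM, both ezrin values above IgG but far from each other (log2 fold 1.79, SE 0.28, adjusted p = 7.7e-09), and DESeq2 did not call it. Srp54a (0.77) and Srp54c (0.60) were higher by edgeR as well, although Srp54c lost its call under DESeq2, cyclic loess, TMM on coding genes and a minimum of 10 CPM. Srp14, which with Srp9 forms the part that slows elongation, read 37.9, 27.7 and 43.8 CPM, a log2 fold of -0.42 that did not pass (SE 0.25, adjusted p = 0.18).

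The receptor pairs a soluble GTPase, Srpr, with a membrane anchor, Srprb. Srpr read 171, 195 and 95.3 CPM, both ezrin libraries well above IgG (log2 fold 0.94, SE 0.25, adjusted p = 9.4e-04). Srprb read 82.0, 83.8 and 64.1 CPM, above IgG by less than the test asks (log2 fold 0.37, SE 0.25, adjusted p = 0.24). Srpr, although docked at the membrane, was grouped as cytosolic because it has no membrane span of its own.

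At the translocon 0 of 6 genes were higher and 1 was lower, with a median of -0.09. For this and every other role, the share over all genes tested was 19.0% higher and 17.4% lower. Each role holds few genes, and its count was not tested against that share. Sec61a1, the main pore subunit, read 183, 157 and 183 CPM, and IgG was level with the higher ezrin value (log2 fold -0.11, SE 0.23, adjusted p = 0.75). Sec61b, a small tail-anchored subunit, read 107, 83.5 and 72.3 CPM (log2 fold 0.40, SE 0.25, adjusted p = 0.20). Sec62 and Sec63 assist chains that enter after synthesis. Sec62 straddled IgG at 45.4, 61.8 and 50.9 CPM (log2 fold 0.07, SE 0.25, adjusted p = 0.84). Sec63 read 20.5, 22.3 and 33.3 CPM, both ezrin values below IgG (log2 fold -0.64, SE 0.25, adjusted p = 0.034), a call lost with library size alone, with every gene that had a count, under DESeq2 and on RPKM. In counts Sec62 stood to Sec63 at 2.22, 2.77 and 1.53.

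TRAP sits beside Sec61 and assists the entry of some chains, and 1 of its 4 genes was lower and 0 higher. Ssr3 read 151, 193 and 283 CPM, with both ezrin libraries below IgG though apart from each other (log2 fold -0.72, SE 0.23, adjusted p = 0.0063). Ssr2 went the other way without passing, at 249, 245 and 189 CPM (log2 fold 0.38, SE 0.23, adjusted p = 0.20). The ratio of Ssr2 to Ssr3 counts was 1.66 and 1.27 in the ezrin libraries and 0.669 in IgG, and the difference between the folds of these subunits was not tested. Spcs2, a subunit of signal peptidase, which cuts off the signal sequence, read 66.0, 85.9 and 69.6 CPM (log2 fold 0.13, SE 0.24, adjusted p = 0.72).

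The Alg enzymes build the glycan on dolichol, first facing the cytosol and then the lumen, and had some of the lowest levels per length, down to Alg6 at 0.382, 0.553 and 0.389 RPKM (reads per kilobase and per 1000000 reads). On the cytosolic face 0 of 6 were higher and 2 lower. Alg11, a mannosyltransferase, read 7.97, 8.76 and 17.2 CPM, about the same in both ezrin libraries and below IgG (log2 fold -1.04, SE 0.29, adjusted p = 0.0019). Alg14, which anchors the cytosolic Alg13 enzyme, was lower as well (-0.88). Alg5, which makes the glucose donor, read 19.0, 21.5 and 13.5 CPM (log2 fold 0.59, SE 0.28, adjusted p = 0.084). Alg2, another mannosyltransferase, read 18.3, 20.2 and 18.3 CPM (log2 fold 0.07, SE 0.27, adjusted p = 0.85).

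On the lumenal face 0 of 6 were higher and 2 lower. Alg10b, which adds the last glucose, read 26.1, 36.8 and 70.2 CPM, the lowest log2 fold of any member (-1.16, SE 0.24, adjusted p = 2.0e-05; chr15:90224311-90230554, GRCm38.p6). Alg9, a mannosyltransferase, was lower as well (-0.92). Alg8, which adds the glucose before that of Alg10b, read 10.5, 9.06 and 6.27 CPM, above IgG but short of the test (log2 fold 0.64, SE 0.34, adjusted p = 0.13). DESeq2 did not call Alg11, Alg14 or Alg9.

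Oligosaccharyltransferase moves the finished glycan onto the protein, and 2 of its 7 genes were higher and 1 lower. Rpn2, a shared subunit, read 344, 332 and 186 CPM, both ezrin libraries close together and above IgG (log2 fold 0.86, SE 0.24, adjusted p = 0.0015), and Rpn1 was higher by 0.59. The catalytic subunit comes in alternative forms: STT3A works at the translocon on the entering chain, and STT3B takes sites that were missed. Stt3a read 194, 260 and 160 CPM, both ezrin values above IgG (log2 fold 0.51, SE 0.24, adjusted p = 0.079). Stt3b read 108, 123 and 199 CPM, both below IgG (log2 fold -0.78, SE 0.23, adjusted p = 0.0035; chr9:115242470-115310468, GRCm38.p6). Stt3a counts were 1.80 and 2.11 times those of Stt3b in the ezrin libraries and 0.804 times in IgG. Per unit length, Stt3a stood at 18.2, 25.1 and 11.6 RPKM and Stt3b at 21.4, 25.2 and 30.6 RPKM, so their levels were near each other in the ezrin libraries and apart in IgG. The difference between the 2 folds was not tested by a model.

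**Figure D3:**
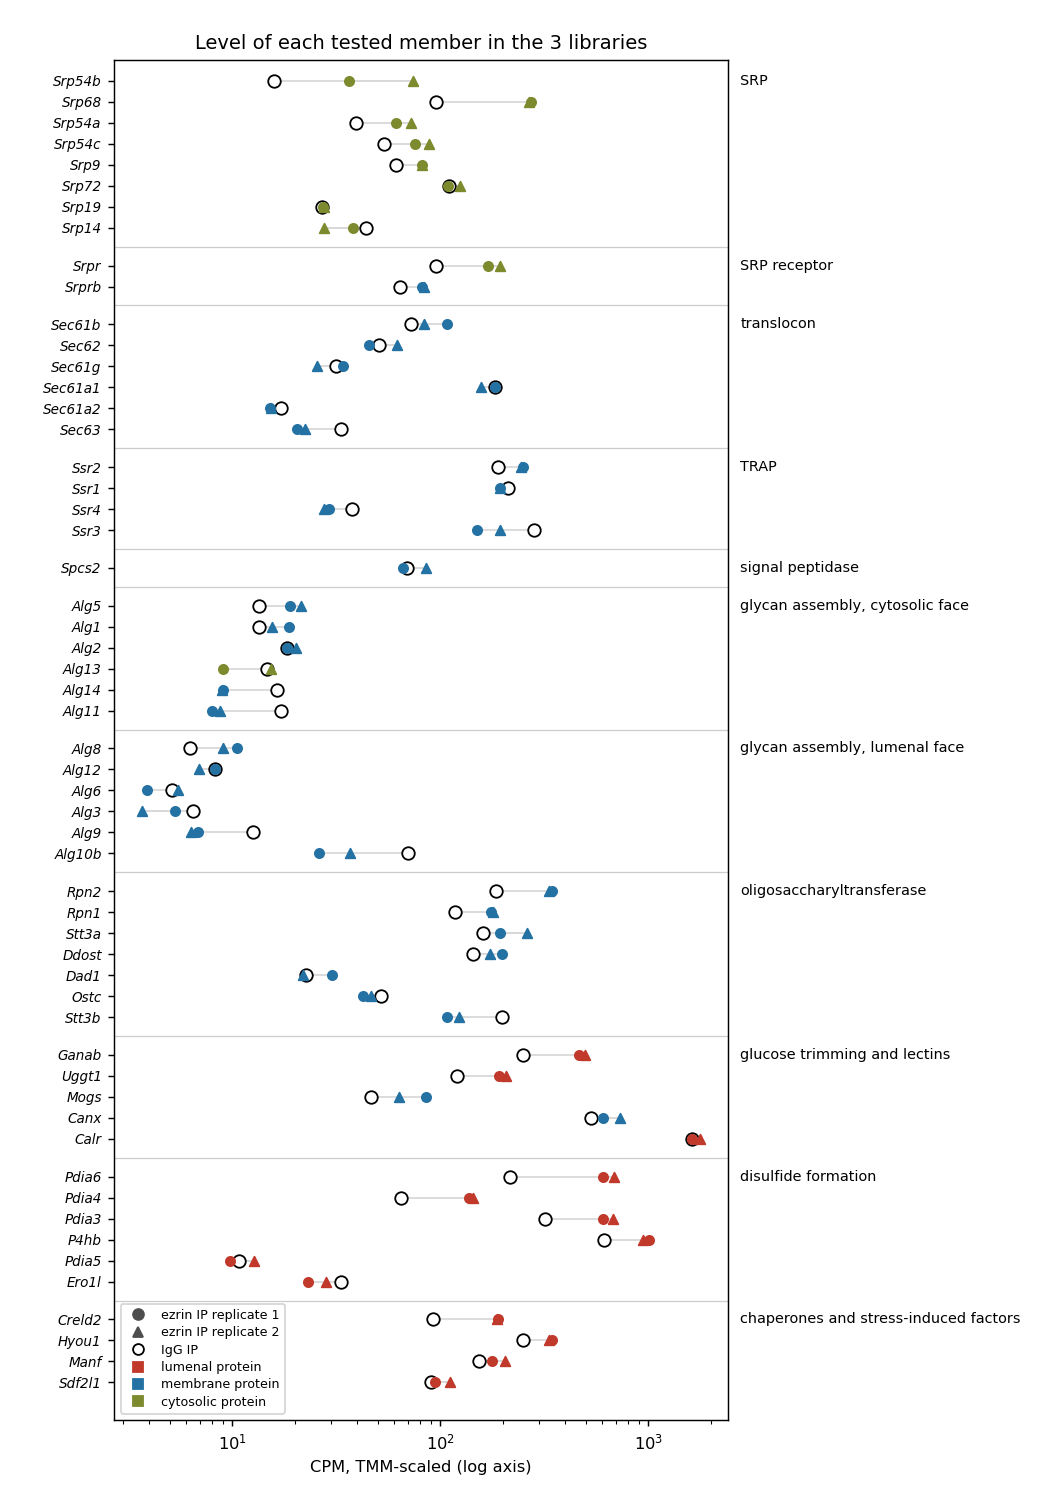
TMM-scaled CPM (horizontal log axis) of the 55 tested members in ezrin IP replicate 1 (filled circle), ezrin IP replicate 2 (triangle) and IgG IP (open circle), ordered by role and, within a role, by log2 fold; colour gives the place of the protein. Calr has IgG at 1626 CPM beside 1617 and 1777, while Pdia6 has 217 beside 604 and 684.

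After transfer, glucosidases I (Mogs) and II (Ganab is its catalytic subunit) trim the glycan, and UGGT1 puts a glucose back on chains that are not folded. In this group 3 of 5 genes were higher and 0 lower. Ganab read 467, 495 and 251 CPM, both ezrin libraries well above IgG (log2 fold 0.94, SE 0.23, adjusted p = 3.7e-04), and Uggt1 (0.72) and Mogs (0.67) were higher too. The lectins that bind the trimmed glycan were not called. Calr, the soluble calreticulin and the most abundant member per length, read 1617, 1777 and 1626 CPM (log2 fold 0.06, SE 0.21, adjusted p = 0.84), and IgG lay between the ezrin values. Canx, the membrane-bound calnexin, read 605, 735 and 531 CPM, both ezrin values above IgG (log2 fold 0.33, SE 0.22, adjusted p = 0.23). Calr stood at 471, 531 and 367 RPKM, and P4hb came next at 296, 283 and 140 RPKM. RPKM scales the libraries to each other in another way than CPM, so only the order of genes within a library is read from these values.

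Of the 7 lumenal genes called higher, 4 are disulfide isomerases. In that role 4 of 6 genes were higher and 0 lower, with a median log2 fold of 0.84. Pdia6 read 604, 684 and 217 CPM, with both ezrin libraries far above IgG (log2 fold 1.57, SE 0.24, adjusted p = 1.5e-09; chr12:17266589-17284785, GRCm38.p6). Pdia3, the isomerase that works with calnexin and calreticulin, read 606, 681 and 319 CPM (log2 fold 1.01, SE 0.23, adjusted p = 8.6e-05). P4hb, the founding member and also a subunit of collagen prolyl hydroxylase, read 1011, 941 and 616 CPM (log2 fold 0.66, SE 0.22, adjusted p = 0.0099). In all of these the ezrin libraries lay closer to each other than to IgG. Pdia4 was higher as well (1.11). Ero1l (Ero1a in RefSeq), the oxidase that recharges P4hb, read 23.2, 28.2 and 33.4 CPM, both ezrin values below IgG, and did not pass (log2 fold -0.38, SE 0.25, adjusted p = 0.23). In counts, Pdia6 was 0.374 and 0.385 times Calr in the ezrin libraries and 0.134 times in IgG.

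Among the chaperones and stress-induced factors 1 of 4 was higher and 0 lower. Creld2, which has isomerase activity and is induced by ER stress, read 190, 187 and 92.3 CPM, with little between the ezrin libraries and a gap to IgG (log2 fold 1.03, SE 0.25, adjusted p = 2.5e-04). Hyou1, a large Hsp70-type chaperone, read 344, 335 and 251 CPM (log2 fold 0.44, SE 0.23, adjusted p = 0.12). Manf, a secreted survival factor kept in the ER, read 178, 206 and 153 CPM (log2 fold 0.33, SE 0.24, adjusted p = 0.28). Sdf2l1, a partner of the ER Hsp70 cycle, read 94.6, 111 and 90.2 CPM (log2 fold 0.19, SE 0.24, adjusted p = 0.57). These 3 had both ezrin values above IgG by less than the test asks.

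Many ER chaperone genes share a promoter element through which the unfolded protein response acts, and its sites are given here as background. All libraries came from 1 untreated line, and a link between the element and recovery with ezrin was not tested. The ER stress response element was searched as CCAAT, then any 9 bases, then CCACG, on both strands of the RefSeq window from 250 bases before to 50 after each start (GRCm38.p6). It was found in 5 of the 47 members with a window (10.6%) and in 37 of all 27025 genes with one (0.137%), or 39 of all 32851 windows (0.119%). Of the further ER genes described below, 6 of 70 held it (8.57%). The related ERSE-II (ATTGG, any base, CCACG) was in 0 of the 47 and in 12 of all 27025 genes (0.0444%), or 12 of all windows (0.0365%). It was in 3 of the 70 further ER genes (4.29%), with log2 folds of 0.54 (Dnajb11), 0.60 (Herpud1) and -0.66 (Krtcap2). CCACG is common to both elements. The sites are printed 5′ to 3′ on the strand that reads CCAAT first, with the fixed letters in capitals. They lie at chr12:17266486-17266514 (plus strand) for Pdia6, chr15:88819515-88819543 (minus) for Creld2, chr11:50325795-50325823 (minus) for Canx, chr8:84847070-84847098 (plus) for Calr and chr2:34772020-34772048 (plus) for Hspa5, a gene of the further list in which the element is well known.
Pdia6: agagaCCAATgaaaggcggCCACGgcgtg
Creld2 and Alg12: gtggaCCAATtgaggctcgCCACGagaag
Canx: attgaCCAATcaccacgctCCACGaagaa
Calr: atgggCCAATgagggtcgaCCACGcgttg
Hspa5: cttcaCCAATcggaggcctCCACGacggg
The log2 folds of the 5 members ran from 1.57 (Pdia6) through 1.03 (Creld2), 0.33 (Canx) and 0.06 (Calr) to -0.12 (Alg12). Creld2 and Alg12 start back to back around the 1 shared site, and Creld2 counts were 23.0 and 27.1 times those of Alg12 in the ezrin libraries and 11.2 times in IgG. The 6 genes of the further list had log2 folds of 1.39 (Hspa5), 0.78 (Hsp90b1), -0.02 (Dnajc3), -0.21 (Ero1lb), -0.47 (Syvn1) and -2.09 (Derl3, not called, with 4, 3 and 8 counts). A match is a run of letters, not a measured binding site.

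A further list of 88 ER genes of the same pathways, with roles in quality control, disulfide exchange, glycan supply and membrane insertion, was set beside the members; 87 were tested and Clgn had 0 counts. Of these 21 were higher and 13 lower, against the 19.0% and 17.4% of all genes, so the list as a whole lay near that background. Lumenal genes had 10 higher and 0 lower of 30 (median 0.49), membrane genes 9 higher and 13 lower of 49 (median -0.10), and cytosolic genes 2 higher and 0 lower of 8 (median 0.06). The ratio of summed lumenal to membrane counts was 1.50 and 1.61 in the ezrin libraries and 0.931 in IgG. Hspa5 (BiP), the main ER Hsp70, read 1074, 1261 and 444 CPM, the highest log2 fold in this list among lumenal genes (1.39, SE 0.23, adjusted p = 2.9e-08). Prkcsh, the noncatalytic subunit of glucosidase II, was higher (245, 219 and 111 CPM, log2 fold 1.07), as was its partner Ganab among the members. Os9, a lectin that sends misfolded glycoproteins out for degradation, was higher by 0.97. Txndc5, an abundant isomerase, was not called at 222, 204 and 206 CPM (log2 fold 0.05).

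Among the membrane genes of that list, Tram2, a translocon-associated protein, read 12.9, 11.3 and 51.5 CPM (log2 fold -2.09, SE 0.25, adjusted p = 4.2e-15). Srd5a3, which makes dolichol, read 5.93, 5.60 and 21.3 CPM (log2 fold -1.88, SE 0.29, adjusted p = 4.4e-09). Both ezrin libraries lay far below IgG for each. Nus1, a subunit of the enzyme before it in dolichol synthesis, was lower as well (-0.75), as were Ern1, the stress sensor IRE1 (-0.74), Tmx4 (-0.90), Dnajc1 (-0.81), Derl2 (-0.59) and the oligosaccharyltransferase subunit Krtcap2 (-0.66). On both RPKM scales Nus1, Ern1, Tmx4, Dnajc1, Derl2 and Krtcap2 lost these calls, and all of them but Nus1 also under DESeq2. Derl2 and Krtcap2 lost theirs with library size alone and with any count too, and Derl2 with RLE size factors. Among the 9 higher membrane genes were Atf6b (0.74), Lman1 (0.69), Qsox1 (0.71) and Tusc3 (0.71), a subunit found with STT3B. Tmem258, another oligosaccharyltransferase subunit, was not called (0.36). Dpm1, higher by 1.11, is grouped here with the membrane although the catalytic subunit itself is soluble and held by membrane partners. On the cytosolic side Emc2 (1.25) and Bag6 (0.81), which serve membrane insertion, were higher. Atf6b, Lman1 and Bag6 were not called under cyclic loess.

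The counts of called members differed between ways of processing, some of which change the test as well as the scaling. With edgeR kept, they were 15 higher and 7 lower with RLE size factors, 14 and 7 with TMM on coding genes, and 18 and 6 with library size alone. The share of all genes called was not computed for these settings, so their counts cannot be set against a background. Cyclic loess with limma called 8 members higher and 8 lower, against 18.5% and 18.1% of all genes, and DESeq2 called 12 and 3, against 14.0% and 8.82%. On log2(RPKM + 1) limma called 26 higher and 0 lower, against 29.9% and 7.73%, and on log2(RPKM + 0.1) again 26 and 0, against 30.0% and 6.76%. Relative to TMM, the all-gene median lay 0.24 and 0.36 higher on these RPKM scales and 0.12 higher with library size alone, and of the 7 lower calls 0 remained on RPKM, where scale and test both changed. The calls of Creld2, Pdia3, Pdia4, Pdia6, Srp54a, Srp68 and Srpr stood in all 9 alternatives that had a test. P4hb, Ganab, Uggt1, Mogs, Rpn1, Rpn2 and Srp54c lost theirs under cyclic loess, where Calr was called lower (-0.70), and Mogs and Rpn1 also with a minimum of 10 CPM and Mogs with DESeq2. Count ratios within a library, such as Stt3a to Stt3b or Pdia6 to Calr, do not depend on this scaling.

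**Figure D4:**
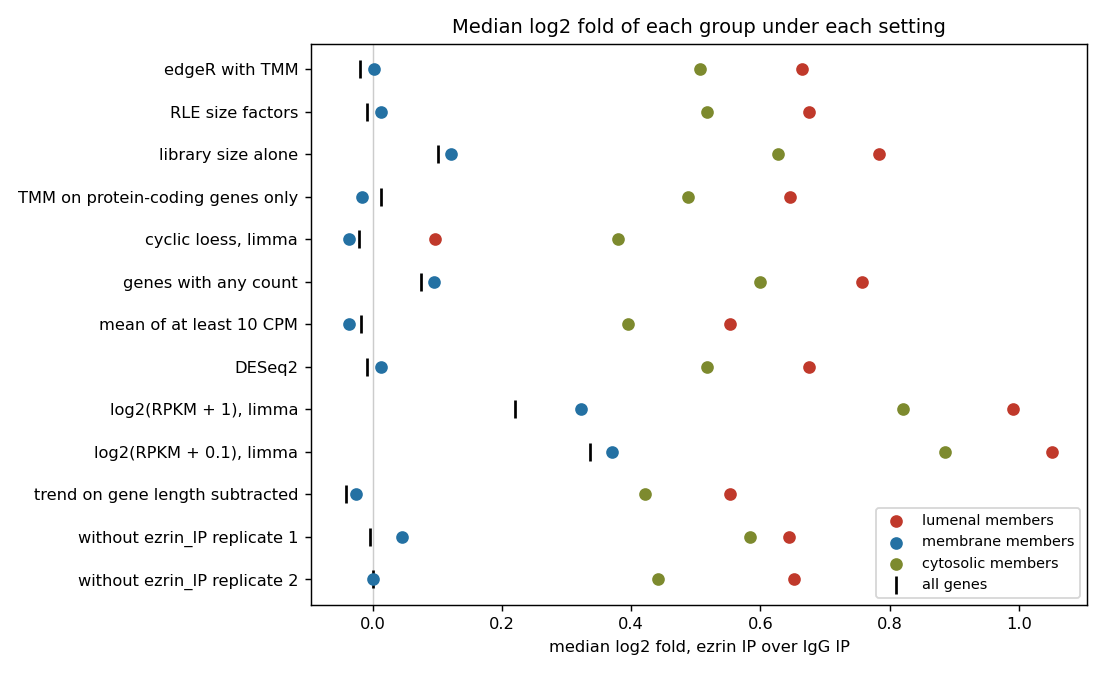
Median log2 fold of ezrin IP over IgG IP (horizontal axis) for the lumenal, membrane and cytosolic members (coloured points) and for all tested genes (black ticks), with 1 row for each way of processing. In the settings drawn, the lumenal median is the highest of the 3 except under cyclic loess, where it is 0.10 and the cytosolic median 0.38.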

How the data were processed

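The authors deposited 2 tables for every library, of raw counts and of RPKM per gene. Per the submitters' processing notes the build was GRCm38; the aligner, counter, annotation and use of strand were not given in the sources used here. The labels describe a RIP kit and ribosomal RNA depletion and also name polyA RNA, which was not settled. Counts were tested with edgeR 4.0.16 (R 4.3.3; TMM, filterByExpr, quasi-likelihood, Benjamini-Hochberg at 0.05), which tested 12478 genes with 1 residual degree of freedom; IgG is assumed to vary like the ezrin libraries. SE is the log2 fold over the square root of F, approximate, and does not reflect a gene's own replicate spread. RPKM were tested with limma 3.58.1, and their folds are on the log2(RPKM + pseudocount) scale, with 1 or 0.1 added, which understates low genes. DESeq2 1.42.0 and cyclic loess were alternatives. Folds of a single ezrin library were taken after adding 1 CPM to it and to IgG. RefSeq (GRCm38.p6) gave coordinates and promoter windows for all 56 members and 47 of them. Its spans overlap another tested gene for Pdia3, Srpr and Alg1, whose reads may be shared.

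Members and lists were chosen with earlier results of these data known. Named in full were, in each role, the 2 most abundant members, those with the highest and lowest log2 fold, and the pairs Stt3a and Stt3b, Calr and Canx, Srpr and Srprb, and Sec62 and Sec63; of the further list, the most abundant and the called extremes of each role. Other called members are named with their log2 fold. The edgeR step was tested on simulated data, with the same spread set for IgG and ezrin libraries, so it did not test that assumption. The simulation kept every gene with a count, unlike the filter used for the results.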

Additional observations from a re-analysis of the deposited data

How the results depend on the processing

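No paired analysis was possible because the groups share only 1 replicate number. The minimum of 100 CPM was chosen after seeing the data; the length correction and leaving out an ezrin library leave no test. The cause of each shift was not tested, beyond the smaller number of genes at a minimum CPM. The count of higher members was 8 under cyclic loess and 26 on both RPKM scales; the lower count was 3 with DESeq2, 0 on both RPKM scales and 2 at 100 CPM or more. The lumenal median was 0.78 with library size alone, 0.096 under loess, 0.76 with any count, 0.55 at 10 CPM or more, 0.99 and 1.05 on RPKM plus 1 and plus 0.1, 0.55 with the length trend removed and 0.83 at 100 CPM or more. In the same order the membrane median was 0.12, -0.037, 0.095, -0.036, 0.32, 0.37, -0.027 and 0.36, with 0.013 under RLE, 0.012 under DESeq2 and -0.017 with TMM on coding genes. The cytosolic median was, up to the length trend, 0.63, 0.38, 0.60, 0.39, 0.82, 0.89 and 0.42. The lumenal minus membrane difference was 0.13 under loess, 0.59 at 10 CPM, 0.58 without the length trend and 0.47 at 100 CPM; for the further list it was 0.43 under loess and 0.44 on RPKM plus 1. Without 1 ezrin library these ran from 0.000105 to 0.045 (membrane), 0.44 to 0.58 (cytosolic), 0.60 to 0.65 (difference) and 0.43 to 0.58 (further list).

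Signs turned for genes that edgeR had not called. On RPKM plus 1 and plus 0.1 they were Ero1l (0.0026 and 0.0017), Alg13 (0.055 and 0.069), Ostc (0.16 and 0.17), Sec61a2 (0.16 and 0.22), Alg6 (0.077 and 0.20), Ssr1 (0.25 and 0.26), Alg12 (0.19 and 0.25), Sec61a1 (0.26 and 0.28) and Sec61g (0.27 and 0.30). With library size alone they were Alg12 (0.00070), Sec61a1 (0.012) and Sec61g (0.048), with any count Sec61g (0.023), and with coding genes Srp19 (-0.0098). Under loess they were Srp19 (-0.023), Calr (-0.70), Sec62 (-0.028), Srp72 (-0.099), Spcs2 (-0.013), Canx (-0.20) and Txndc5 (-0.26). At 10 CPM or more they were Srp19 (-0.10), Calr (-0.050), Pdia5 (-0.049), Sec62 (-0.037), Alg2 (-0.036), Srp72 (-0.019) and Txndc5 (-0.066). The replicated fit has 1 residual degree of freedom, and the widest SE of a member was 0.40, for Alg6, whose mean was 4.83 CPM.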

Other observations

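The membrane members were also divided by how they are anchored, a split chosen after their values were seen and so given with no test. Of 13 with 1 membrane span, 2 were higher and 1 lower, with a median log2 fold of 0.37. Of 17 with several spans, 1 was higher (Rpn2) and 5 were lower, with a median of -0.13, and Alg2 and Alg11 were not placed in either class. Over all genes tested, 19.0% were higher and 17.4% lower, and the counts of these small classes were not tested against those shares. Median levels were 76.6 CPM with 1 span and 44.4 CPM with several.

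The RNA at the core of SRP, 7SL, is listed under 2 near-identical genes whose reads cannot be assigned with certainty. Rn7s1 read 4539, 244 and 13726 CPM in ezrin 1, ezrin 2 and IgG, and Rn7s2 read 4604, 3918 and 39950 CPM. All ezrin values lay below IgG (log2 fold -2.52 and -3.23), whereas 4 of the 8 SRP protein genes were higher, namely Srp68 and the Srp54 copies. Rn7s1 also differed widely between the ezrin libraries, and the part of the share of non-coding RNA in IgG was not tested.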
